A study of Oryctolagus cuniculus with 6 samples.

Results

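Transcripts of T cells and natural killer (NK) cells were measured in injured rabbit facial nerve with and without an implanted I-125 seed. The 31 genes examined encode the T cell receptor (TCR) complex, its surface partners and signalling proteins, lineage transcription factors, products of cytotoxic cells and cytokine receptors. Taken by symbol, 27 of the 31 genes were found among the 17396 rows of the count files, 25 by their symbol and 2, ZAP70 and IL2RA, through the RefSeq symbol of a LOC number. CD69, GZMA, GZMB and CTSW were not analysed here.

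The libraries came from facial nerves of wild-type male Japanese white rabbits, 3 to 4 months old, in 2 groups of 3 rabbits with 1 library per rabbit. In both groups the main trunk of the facial nerve had been cut, a model of facial nerve injury (FNI). In the FNI+I-125 group, an iodine-125 seed of 0.8 mCi, a radioactive source used in brachytherapy, had also been placed 0.3 to 0.5 cm from the nerve when the skin was closed, and all nerves were taken on day 14. The question was which genes differ in an injured nerve when a seed is implanted beside it, and since neither group carried an inactive seed, the seed's radiation and its presence cannot be told apart.

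T cells recognize antigen through the TCR, whose signal is carried into the cell by the CD3 chains (CD3D, CD3E and CD3G) and by the zeta chain, CD247. The kinase LCK, held at the coreceptors CD4 and CD8, phosphorylates these chains, the kinase ZAP70 then binds to them, and the adaptors LAT and LCP2 pass the signal on. Cytotoxic CD8 T cells and NK cells kill target cells with perforin (PRF1) and granzymes or through FAS ligand (FASLG). In a cut peripheral nerve, macrophages clear most of the myelin debris, and lymphocytes enter in smaller numbers. Some of the genes are not restricted to lymphocytes: LCP2 and IL2RG are also used by myeloid cells, SLAMF7 by plasma cells and macrophages, and GATA3 by gland epithelium.

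Total counts ran from 16031151 to 16798012 per library, and 1 count was worth 0.0585 to 0.0653 CPM, counts scaled in edgeR to the same fixed total in every library after TMM correction. The 27 genes together held 1133, 1984 and 326 counts in the FNI group, in the order of replicates 1, 2 and 3 kept throughout, against 3424, 6243 and 2798 in the FNI+I-125 group. All 3 FNI+I-125 libraries therefore lay above all FNI libraries in this sum, while FNI replicate 3 was far below the other FNI libraries and FNI+I-125 replicate 2 was far above the other FNI+I-125 libraries. LCP2 alone gave 1699 of the 3424 counts of FNI+I-125 replicate 1, and SLAMF7 1496 of the 6243 of FNI+I-125 replicate 2. The sum of the TCR complex genes overlapped, at 4.68, 12.0 and 5.61 CPM against 11.6, 25.0 and 9.79 CPM. So did the sums of the surface, lineage factor and cytotoxic genes, SLAMF7 included. The sums of the signalling genes and of the cytokine receptors did not overlap. FNI replicate 3 had 7 of the 27 genes at 0 counts, and no FNI+I-125 library had any at 0. A count of 0 allows up to 3 counts in a library, for counting error only, which was 0.176 to 0.196 CPM. In whole tissue, fewer cells of a type and less RNA per cell cannot be told apart.

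The nerves also differed in the other tissue they held. A list of Schwann cell markers (9 of 9 found) summed to 38407 CPM in FNI replicate 3 and to 774 to 7574 CPM in the other 5 libraries. Macrophage and monocyte markers (12 of 14 found) summed to 898, 1129 and 304 CPM in the FNI group against 1600, 2081 and 1910 CPM in the FNI+I-125 group, with no overlap. Neutrophil markers (6 of 8 found) gave 77.3, 28.3 and 6.61 CPM against 1202, 33.3 and 82.0 CPM, with FNI+I-125 replicate 1 far above the others. B and plasma cell markers (9 of 10 found) gave 516, 182 and 18.8 CPM against 876, 374 and 428 CPM and overlapped between the groups. Gland and epithelial markers (9 of 9 found), at 3993, 48764 and 172 CPM against 641, 56.4 and 1973 CPM, and muscle markers (7 of 11 found), at 75.6, 22.8 and 41.4 CPM against 4515, 3845 and 16.5 CPM, varied within both groups. Dendritic cell markers (7 of 8 found) gave 44.3, 62.7 and 21.6 CPM against 96.2, 249 and 159 CPM without overlap, with FNI replicate 3 lowest and FNI+I-125 replicate 2 highest, as in the T and NK cell sum. Of that 249 CPM, ITGAX held 184 CPM. Like ITGAX, FLT3 was highest in FNI+I-125 replicate 2, but XCR1, LAMP3 and CCR7 were highest in FNI+I-125 replicate 1. CD1D and BATF3 were highest in FNI libraries. These genes were named after their values were seen. Adipocyte markers (4 of 5 found) were lower without overlap, at 1289, 1546 and 2753 CPM against 885, 903 and 1081 CPM. The part of these cells in the results that follow was not tested.

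**Figure D1:**
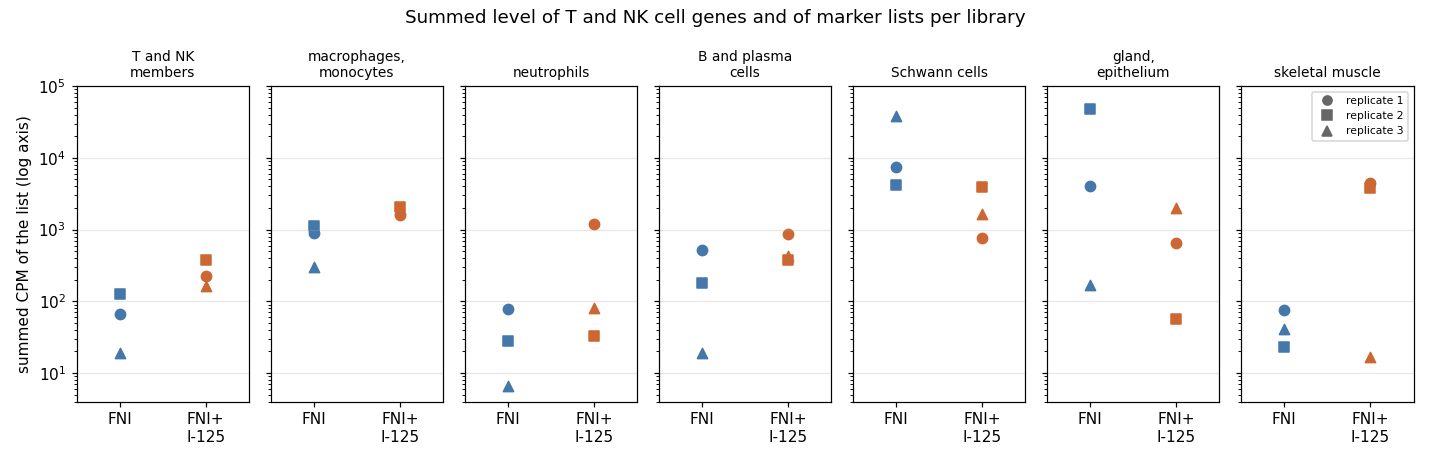
Each panel gives, on a common log axis, the summed CPM of the 27 T and NK cell genes or of a marker list in each library, with FNI in blue and FNI+I-125 in orange and a symbol for each replicate number. The T and NK cell sum ran from 19.2 to 125 CPM in the FNI group and from 164 to 379.6 CPM in the FNI+I-125 group, and FNI replicate 3 was lowest in it and in the macrophage, neutrophil and B cell panels. The sums of the TCR complex genes and of the T cell surface genes, not drawn, overlapped between the groups.

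Of the 27 T and NK cell genes found, 26, all but GATA3, had a higher mean CPM with the seed. Of the 21 genes later tested, 20 had a log2 fold change above 0, as had 51.1% of all 14003 genes tested. The genes shared much of their order of libraries, so they are not separate observations. In 9 genes, 8 of them among the 21 genes later tested, every FNI+I-125 library lay above every FNI library, and in 0 genes the reverse held. Over all 14003 genes tested, 14.8% were higher and 12.3% were lower without overlap. With no filter on low counts, these shares were 11.7% and 11.6%. The 9 genes were CD3G, CD5, LCK, LCP2, TBX21, IFNG, IL2RA, IL2RB and IL2RG, of which IFNG was too low for the test. The lack of overlap of IFNG rested on 2 counts in FNI+I-125 replicate 3, within the 3 that a count of 0 allows. In 24 of the 27 genes the lowest FNI library was replicate 3. The highest of the 6 libraries was FNI+I-125 replicate 2 for 21 genes, FNI+I-125 replicate 1 for CD4, LCP2, IL2RA and IL2RG, and FNI+I-125 replicate 3 for GATA3 and FOXP3.

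**Figure D2:**
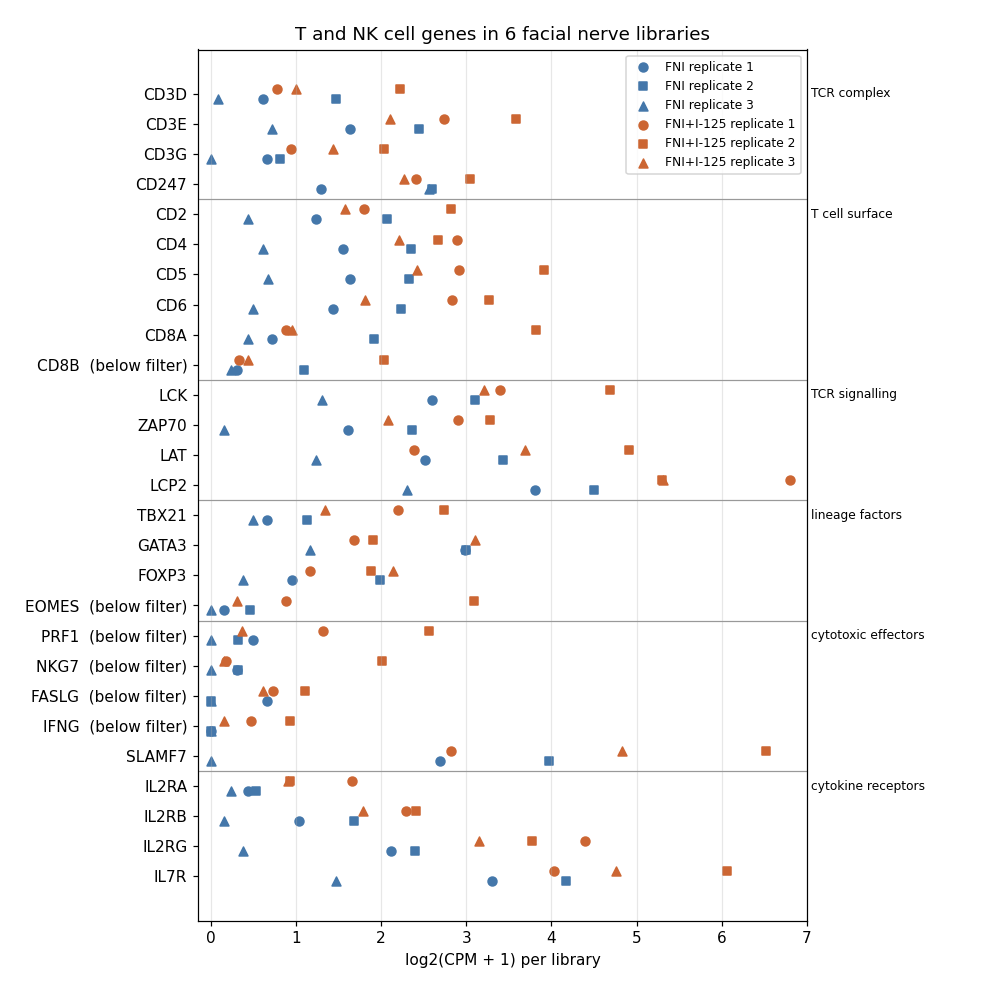
The log2(CPM + 1) of each of the 27 genes is shown for each library, grouped by role, with FNI in blue, FNI+I-125 in orange and a symbol for each replicate number. FNI+I-125 replicate 2 (orange squares) was highest for 21 genes and FNI replicate 3 (blue triangles) was the lowest FNI library for 24 genes.

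A filter on low counts, which asks for about 10 counts in at least 3 libraries, left 21 of the 27 genes. CD8B, EOMES, PRF1, NKG7, FASLG and IFNG did not pass it. Of the 21 genes, 8 passed the cutoff in all 3 FNI libraries, while CD3D, CD3G and TBX21 passed it in 1 FNI library and IL2RA in 0. CD3D, CD3G and TBX21 thus entered the test mainly, and IL2RA only, through the FNI+I-125 group. In edgeR's quasi-likelihood test, 0 of the 14003 genes reached an adjusted p under 0.05 in either direction, and no gene had an adjusted p below 0.141. At an unadjusted p under 0.05, 5 of the 21 genes were higher with the seed, namely CD5, LCP2, TBX21, IL2RA and IL2RG, and 0 were lower, while 9.23% of all genes tested were higher and 7.73% lower at that threshold. With no filter, the count was 7 of 27 genes with a background of 7.61%. The median log2 fold change was 1.59 over the 21 genes and 0.01 over all genes tested. With DESeq2 at an adjusted p under 0.05, 2 of the 19 genes with an adjusted p, LCP2 and TBX21, were upregulated and 0 were downregulated, where 3.83% of all genes were upregulated.

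These counts moved with the libraries. Without FNI+I-125 replicate 1, 1 of the 21 genes was higher at the unadjusted p, with 6.14% of all genes, and without FNI+I-125 replicate 2, 3 were, with 6.11%. Without FNI replicate 1, 2 of the 21 genes were higher, with 6.21% of all genes. Without FNI replicate 2, the FNI library with the most T and NK cell counts, 11 were higher at the unadjusted p, with 8.08% of all genes. In that fit 18 were higher without overlap, as were 20.9% of all genes. Apart from small shifts in scaling, leaving out a library cannot lower the count without overlap. With FNI replicate 3 and FNI+I-125 replicate 2 both left out, a setting chosen after seeing the data, 2 genes, LCP2 and IL2RG, were higher at the unadjusted p, and the median log2 fold change was 0.65. In that setting, 6.13% of all genes were higher at the unadjusted p.

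**Figure D3:**
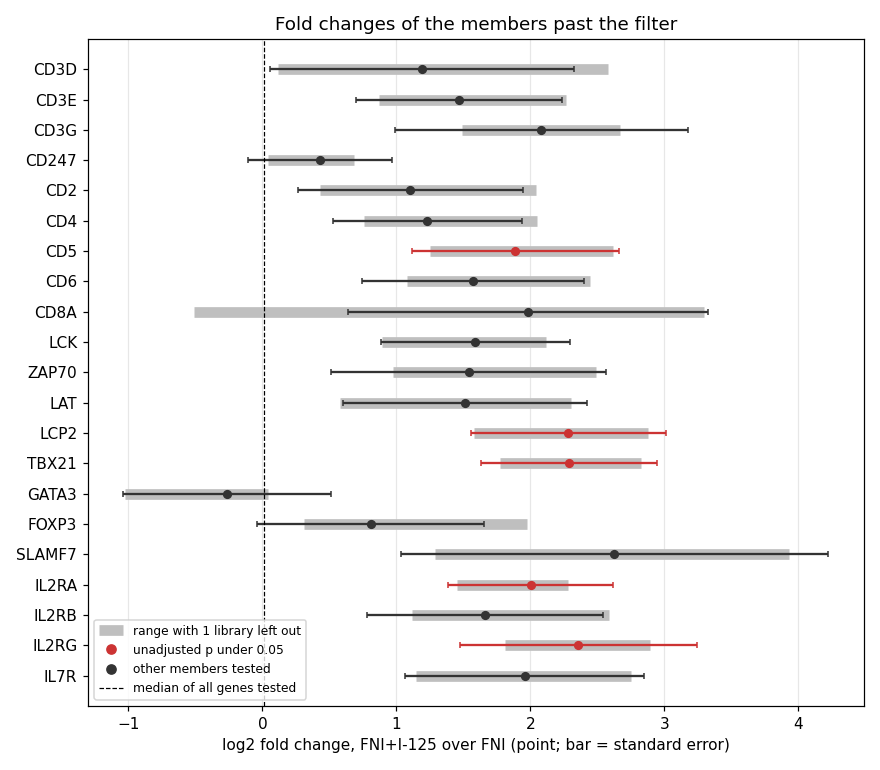
Points give the log2 fold change of FNI+I-125 over FNI for the 21 genes tested, thin bars the standard error and grey bars the range with each library left out in turn, with genes at an unadjusted p under 0.05 in red. All points but that of GATA3 lie above the dashed median of all genes (0.01), and the grey bar of CD8A, from -0.51 to 3.30, is the widest.

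Of the TCR complex, the transcript of the CD3 chain CD3E was detected in all libraries. CD3E had 36, 71 and 11 counts in the FNI group, or 2.11, 4.47 and 0.649 CPM, against 87, 181 and 56 counts in the FNI+I-125 group, or 5.68, 11.0 and 3.28 CPM. FNI replicate 2 lay above FNI+I-125 replicate 3, so the groups overlapped, and the log2 fold change was 1.47 ± 0.77 (adjusted p = 0.347). Here and in what follows, log2 fold changes are given ± the standard error, and adjusted p-values are those of edgeR's quasi-likelihood test, adjusted over all genes by Benjamini-Hochberg, unless DESeq2 is named. CD3D had 9, 28 and 1 counts against 11, 60 and 17, and its log2 fold change, 1.19, was 0.11 without FNI+I-125 replicate 2. CD3G had 10, 12 and 0 counts against 14, 51 and 29. Its groups did not overlap (exact permutation test, p = 0.1, the smallest that 3 against 3 allow), with a log2 fold change of 2.08 ± 1.09 (adjusted p = 0.347). CD247 stood apart from the CD3 chains. It had 25, 80 and 83 counts against 66, 119 and 65, so that FNI replicate 3, where CD3D, CD3E and CD3G were lowest, held about as much CD247 as FNI replicate 2, and its log2 fold change was 0.43 ± 0.54 (adjusted p = 0.677). FNI replicate 3 is also the library with the highest Schwann cell marker sum, whose part in the CD247 value was not tested.

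Among the surface receptors, CD5, which dampens the TCR signal, was the one surface receptor tested whose groups did not overlap. CD5 had 36, 64 and 10 counts in the FNI group against 100, 231 and 74 in the FNI+I-125 group, or 2.11, 4.03 and 0.590 CPM against 6.53, 14.0 and 4.34 CPM. FNI+I-125 replicate 3 lay just above FNI replicate 2. The log2 fold change of CD5 was 1.89 ± 0.77 (adjusted p = 0.294), with an unadjusted p just under 0.05. That p was kept in 2 of the 6 fits with 1 library left out, and lost without FNI replicate 1 (1.85), FNI replicate 3 (1.43), FNI+I-125 replicate 1 (2.03) or FNI+I-125 replicate 2 (1.25). Its relative CD6, a receptor for the adhesion molecule ALCAM, had 29, 59 and 7 counts against 94, 142 and 43, and CD2, which binds CD58 on partner cells, had 23, 51 and 6 against 38, 100 and 34. Both overlapped between the groups, and their log2 fold changes were 1.57 ± 0.83 (adjusted p = 0.349) and 1.10 ± 0.84 (adjusted p = 0.489).

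The coreceptors of the helper and cytotoxic lineages differed in the order of their libraries. CD4 had 33, 65 and 9 counts in the FNI group against 98, 88 and 62 in the FNI+I-125 group, and its log2 fold change was 1.23 ± 0.70 (adjusted p = 0.378). CD8A had 11, 44 and 6 counts against 13, 216 and 16, and CD8B, below the filter, had 4, 18 and 3 against 4, 51 and 6. FNI+I-125 replicate 2 held 88.2% of the CD8A counts and 83.6% of the CD8B counts of its group, while FNI+I-125 replicates 1 and 3 lay below FNI replicate 2 for both genes. The log2 fold change of CD8A was 1.98 ± 1.34 (adjusted p = 0.443) and -0.51 without FNI+I-125 replicate 2, so its direction rested on that library.

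Within single libraries, CD8A made up 25.0%, 40.4% and 40.0% of the summed CD8A and CD4 counts in FNI replicates 1, 2 and 3. In the FNI+I-125 group the share was 11.7% in replicate 1 (95% exact Clopper-Pearson interval 6.39% to 19.2%), 71.1% in replicate 2 (65.6% to 76.1%) and 20.5% in replicate 3 (12.2% to 31.2%). These intervals cover counting error only. The interval of replicate 2 did not overlap those of replicates 1 and 3, which overlapped each other. The intervals of the 3 FNI libraries overlapped as well and together spanned 13.2% to 67.7%.

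All 4 signalling proteins of the proximal TCR pathway had higher group means with the seed. LCK had 86, 121 and 25 counts in the FNI group against 146, 407 and 140 in the FNI+I-125 group, without overlap, and its log2 fold change was 1.59 ± 0.70 (adjusted p = 0.310). ZAP70 had 35, 66 and 2 counts against 99, 143 and 55, and LAT had 81, 156 and 23 against 65, 479 and 203. Both overlapped, since FNI replicate 2 lay above FNI+I-125 replicate 3 for ZAP70 and above FNI+I-125 replicate 1 for LAT, and the log2 fold changes were 1.54 ± 1.03 (adjusted p = 0.436) and 1.51 ± 0.91 (adjusted p = 0.398).

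LCP2, the SLP-76 adaptor, had another order of libraries. It had 223, 343 and 67 counts in the FNI group against 1699, 629 and 659 in the FNI+I-125 group, equal to 12.9 ± 8.82 CPM (SD, n = 3) against 62.6 ± 41.9 CPM (SD, n = 3). FNI+I-125 replicate 1 was highest, although LAT was lowest of its group there. The log2 fold change of LCP2 was 2.28 ± 0.73 (adjusted p = 0.280), and its unadjusted p was under 0.05 except without FNI+I-125 replicate 1, at 1.58, or without FNI replicate 1, at 2.29. In DESeq2's Wald test its log2 fold change was 2.27 (adjusted p = 0.0264). For each CD3E count there were 6.19, 4.83 and 6.09 LCP2 counts in the FNI group against 19.5, 3.48 and 11.8 in the FNI+I-125 group, with the highest ratio in the library where the neutrophil markers were highest, whose part was not tested.

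Of the lineage factors, TBX21 (T-bet), which drives the type 1 helper and cytotoxic programs, was the member with the smallest p-value. TBX21 had 10, 19 and 7 counts in the FNI group against 55, 93 and 26 in the FNI+I-125 group, equal to 0.731 ± 0.411 CPM (SD, n = 3) against 3.59 ± 2.06 CPM (SD, n = 3). The groups did not overlap, and the log2 fold change was 2.29 ± 0.66 (adjusted p = 0.280) in edgeR and 2.29 in DESeq2's Wald test (adjusted p = 0.0359). It kept an unadjusted p under 0.05 with each of the 6 libraries left out, with values from 1.77 to 2.83, and lost it at 1.49 with FNI replicate 3 and FNI+I-125 replicate 2 both left out. TBX21 passed the filter cutoff in 1 FNI library only, and so entered the test mainly through the FNI+I-125 group. Its relative EOMES, found in effector and memory CD8 T cells and in NK cells, had 2, 6 and 0 counts against 13, 124 and 4, and 87.9% of its FNI+I-125 counts lay in replicate 2. For each TBX21 count there were 1.33 EOMES counts in that library and at most 0.316 in any other.

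FOXP3, the factor of regulatory T cells, had 16, 47 and 5 counts in the FNI group against 19, 44 and 58 in the FNI+I-125 group. Both ranges overlapped, and the log2 fold change was 0.81 ± 0.85 (adjusted p = 0.616). FNI+I-125 replicate 3 was its highest library, and there FOXP3 reached 1.04 counts for each CD3E count, against 0.218 to 0.662 in the other 5 libraries. GATA3, the factor of type 2 helper cells, was the one member tested with a negative log2 fold change. It had 118, 111 and 21 counts against 34, 45 and 130, with a log2 fold change of -0.26 ± 0.78 (adjusted p = 0.870). The 3 libraries with the most GATA3, FNI replicates 1 and 2 and FNI+I-125 replicate 3, were also the 3 libraries with the highest gland and epithelial marker sum, whose part was not tested.

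Products of cytotoxic cells were near the limit of detection in most libraries. PRF1 had 7, 4 and 0 counts in the FNI group against 23, 81 and 5 in the FNI+I-125 group. NKG7, a granule membrane protein of T and NK cells, had 4, 4 and 0 against 2, 50 and 2, and FASLG had 10, 0 and 0 against 10, 19 and 9. FNI+I-125 replicate 2 was the highest library for all 3 genes and held 74.3%, 92.6% and 50.0% of the FNI+I-125 counts, while its share of the CD3E counts was 55.9%. In FNI+I-125 replicates 1 and 3, NKG7 had 2 counts each against 4 each in FNI replicates 1 and 2, too few to order these libraries. IFNG, the cytokine of type 1 helper and cytotoxic cells, was at 0 in each of the 3 FNI libraries, whereas the FNI+I-125 libraries held 6, 15 and 2 counts. Pooled over the group, its CPM with the seed was 7.84-fold that of 3 counts over the 3 FNI libraries, which were taken as the limit for counting error. Counting error of the FNI+I-125 counts was not included, so this ratio is not a lower bound. Since 15 of the 23 counts lay in FNI+I-125 replicate 2, the same ratio was computed without that library, after seeing the data, and was 4.11-fold.

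SLAMF7, a receptor of NK cells, plasma cells and activated macrophages, had far more counts than the cytotoxic genes. It had 93, 234 and 0 counts in the FNI group against 93, 1496 and 467 in the FNI+I-125 group. FNI+I-125 replicate 1 equalled FNI replicate 1 in counts and lay below FNI replicate 2, so the groups overlapped. The log2 fold change was 2.63 ± 1.60 (adjusted p = 0.401), the largest of the 21 genes with the largest standard error, and 1.29 without FNI+I-125 replicate 2.

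Of the 4 cytokine receptor chains, 3 were higher without overlap, as were 14.8% of all genes tested. IL2RG, the common gamma chain shared by the receptors of IL-2, IL-7, IL-15 and related cytokines, had 57, 68 and 5 counts in the FNI group against 306, 209 and 134 in the FNI+I-125 group, equal to 2.64 ± 2.08 CPM (SD, n = 3) against 13.5 ± 6.10 CPM (SD, n = 3). All FNI+I-125 libraries lay above all FNI libraries, with a log2 fold change of 2.36 ± 0.88 (adjusted p = 0.283), and 3 of the 6 fits with 1 library left out kept an unadjusted p under 0.05. It was lost without FNI replicate 1 (2.56), FNI+I-125 replicate 1 (1.96) or FNI+I-125 replicate 2 (2.37). IL2RA, the alpha chain of the high-affinity IL-2 receptor and a gene of activated and regulatory T cells, had 6, 7 and 3 counts against 33, 15 and 15 and a log2 fold change of 2.00 ± 0.62 (adjusted p = 0.280). It kept the unadjusted p in 5 of those 6 fits and lost it without FNI+I-125 replicate 1, at 1.45. IL2RA passed the filter cutoff in 0 FNI libraries and entered the test only through the FNI+I-125 group, so its p and these fits are not support for a difference. IL2RB, the beta chain of the IL-2 and IL-15 receptors, had 18, 35 and 2 counts against 60, 71 and 42 without overlap, and its log2 fold change was 1.66 ± 0.88 (adjusted p = 0.350). IL7R, the IL-7 receptor of resting and memory T cells, had 151, 271 and 30 counts against 236, 1084 and 445. FNI replicate 2 lay above FNI+I-125 replicate 1, and the log2 fold change of 1.96 ± 0.89 (adjusted p = 0.315) was 1.14 without FNI+I-125 replicate 2.

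PTPRC (CD45), the phosphatase found on all nucleated blood cells, had 708, 1054 and 182 counts in the FNI group against 2184, 2667 and 1681 in the FNI+I-125 group, without overlap, with a log2 fold change of 1.77 ± 0.63 (adjusted p = 0.280). The counts of each gene were therefore also set against PTPRC in the same library. CD3E had 50.8, 67.4 and 60.4 counts for each 1000 PTPRC counts in the FNI group against 39.8, 67.9 and 33.3 in the FNI+I-125 group. CD5 had 50.8, 60.7 and 54.9 against 45.8, 86.6 and 44.0, and LCK had 121, 115 and 137 against 66.8, 153 and 83.3. On this scale FNI replicate 3 no longer stood apart for CD3E, CD5 and LCK. The FNI+I-125 libraries lay on both sides of the FNI libraries for them, with replicate 2 highest and replicates 1 and 3 below. For other genes FNI replicate 3 still stood apart, as ZAP70 had 49.4, 62.6 and 11.0 in the FNI group and IL2RG 80.5, 64.5 and 27.5. For TBX21, at 14.1, 18.0 and 38.5, it was instead the highest FNI library.

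Over the 21 genes, the log2 ratio of the group means per 1000 PTPRC counts was above 0 for 10 and below 0 for 11, with a median of -0.092. The same median was -2.47 over all 14003 genes tested. None of the 21 genes was higher without overlap, where 0.293% of all genes were, and 2, CD4 and GATA3, were lower without overlap, where 80.9% of all genes were. CD4 had 46.6, 61.7 and 49.5 counts per 1000 PTPRC counts against 44.9, 33.0 and 36.9, and GATA3 had 167, 105 and 115 against 15.6, 16.9 and 77.3. CD247 had the lowest log2 ratio, -2.32, through its 456 counts per 1000 PTPRC counts in FNI replicate 3, and SLAMF7 the highest, 1.32.

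**Figure D4:**
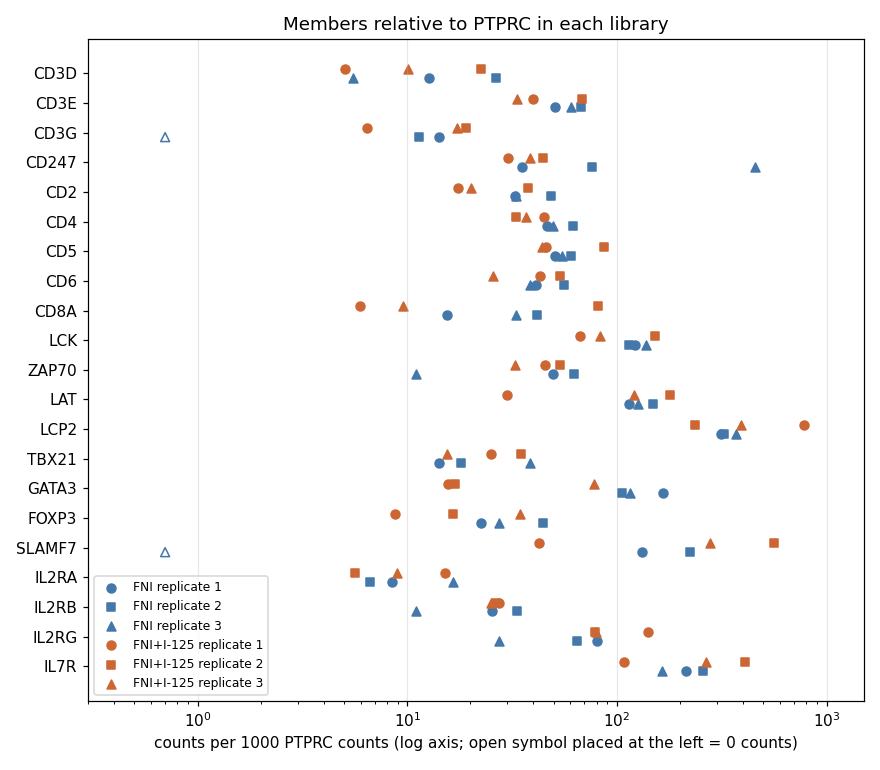
Counts of the 21 genes tested per 1000 PTPRC counts in the same library are shown on a log axis, with FNI in blue, FNI+I-125 in orange, a symbol for each replicate number and open symbols for 0 counts. The groups overlap for 19 of the 21 genes, and CD4 and GATA3 lie lower in all 3 FNI+I-125 libraries.

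Other genes of these pathways were taken from lists written from general knowledge. Of the 22 further TCR signalling genes tested, 5 were higher and 2 lower at an unadjusted p under 0.05, with a median log2 fold change of 1.02, and 9.23% of all genes tested were higher and 7.73% lower. The 3 with the smallest p-values were PTPN22, a phosphatase that restrains LCK and ZAP70, with 56, 63 and 25 counts against 168, 230 and 166 and a log2 fold change of 1.99 ± 0.41 (adjusted p = 0.280), MALT1, a protease that links the TCR to NF-kappaB, with a log2 fold change of 1.04 ± 0.32 (adjusted p = 0.280), and PLCG1, a phospholipase with a broad range of cell types, at -0.44 ± 0.14 (adjusted p = 0.280). PTPN22 and PLCG1 did not overlap between the groups, and MALT1 did.

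Of 17 further lineage factors, 6 were higher and 1 lower at the same threshold (9.23% and 7.73% of all genes), with a median of 1.35 on the log2 scale. STAT4, which carries the IL-12 signal toward the type 1 program, had 38, 27 and 37 counts against 66, 135 and 86 and a log2 fold change of 1.52 ± 0.35 (adjusted p = 0.280). LEF1, a factor of naive T cells and of Wnt signalling in other cells, had 171, 175 and 147 against 580, 264 and 457 and 1.44 ± 0.33 (adjusted p = 0.280). BCL11B, a T cell commitment factor, had 2, 0 and 0 counts against 13, 15 and 18, a ratio of pooled CPM of 23.5 with 6.15 as the lower bound of its 95% counting interval. BCL11B passed the filter cutoff in 0 FNI libraries and entered the test only through the FNI+I-125 group. Its p and this interval are therefore not support for a difference, and the interval leaves out the variation between rabbits. The 3 genes, picked by their p, were without overlap, and BCL11B was nearly even over the FNI+I-125 libraries.

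Of 15 further cytotoxic and NK genes tested, 9 were higher at an unadjusted p under 0.05 and 0 were lower, 10 were higher without overlap and the median log2 fold change was 1.82. Over all genes tested, these shares were 9.23%, 7.73% and 14.8%. They included UNC13D, which primes granules for release, with 35, 47 and 15 counts against 145, 104 and 132 and a log2 fold change of 2.00 ± 0.47 (adjusted p = 0.280). CST7, an inhibitor of granule proteases, had 16, 23 and 6 against 186, 100 and 48 and 2.93 ± 0.74 (adjusted p = 0.280), and SRGN, the proteoglycan of secretory granules, had 900, 1101 and 1008 against 5512, 2782 and 1668 and 1.79 ± 0.48 (adjusted p = 0.280). All 3 are also made by myeloid cells. The list was not limited to genes restricted to T and NK cells, and the part of other cells in the 9 genes was not tested. Receptors of NK cells varied in their counts. KLRG1, below the filter, had 0, 9 and 0 counts against 5, 4 and 8. CRTAM, also below it, had 0, 1 and 1 against 4, 14 and 1. CD96 had 7, 17 and 4 against 4, 56 and 10, with a log2 fold change of 1.31 ± 1.08 (adjusted p = 0.523). The groups overlapped for KLRG1, CRTAM and CD96. KLRB1 had 0, 2 and 1 counts against 12, 7 and 5, KLRK1 1, 7 and 0 against 10, 12 and 2 and NCR3 3, 9 and 2 against 25, 31 and 8, all below the filter, and NCR1 and KLRD1 were not analysed here. CD244, also carried by other blood cells, had 32, 22 and 5 counts against 251, 63 and 98 and a log2 fold change of 2.86 ± 0.85 (adjusted p = 0.280), and CD226 had 22, 29 and 6 against 84, 70 and 44 and 1.82 ± 0.64 (adjusted p = 0.280). Both were without overlap and at an unadjusted p under 0.05. Among the granzymes found, whose reads may be shared between copies of the family, GZMK had 1, 1 and 0 counts against 1, 48 and 0 and GZMH 1, 28 and 0 against 21, 81 and 116. These NK cell receptors and granzymes were named after their values were seen. Of the 49 GZMK counts of the FNI+I-125 group, 48 lay in replicate 2, while GZMH was highest in replicate 3. GZMH passed the filter but was not among the 9 genes, with overlapping groups and a log2 fold change of 2.85 ± 1.49 (adjusted p = 0.345).

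Of 16 further cytokine and receptor genes tested, 5 were higher and 0 lower at the unadjusted p (9.23% and 7.73% of all genes). Without overlap, 9 were higher and 1, STAT5B, named after its values were seen, was lower (14.8% and 12.3% of all genes), and the median log2 fold change was 0.64. IFNGR1, the ligand-binding chain of the IFNG receptor, had 1226, 1192 and 1171 counts against 1884, 1548 and 1524 and a log2 fold change of 0.51 ± 0.15 (adjusted p = 0.280). IL18R1, a receptor chain for IL-18, had 13, 8 and 2 against 161, 31 and 25 and 3.30 ± 1.05 (adjusted p = 0.280), highest in FNI+I-125 replicate 1. IL15, a cytokine that maintains NK and memory CD8 T cells, had 14, 20 and 30 against 52, 49 and 43 and 1.20 ± 0.39 (adjusted p = 0.280). These 3 genes, picked by their p, were without overlap. IL18R1 passed the filter cutoff in 1 FNI library only. The T cell cytokines IL2, IL4 and IL21, named after their values were seen, had at most 3 counts in any library.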

How the data were processed

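RNA-seq of 6 rabbit facial nerve libraries was analysed, 3 of the FNI group and 3 of the FNI+I-125 group. The authors selected mRNA with oligo dT beads, used a stranded library kit per the labels, and deposited the raw counts of each library, as whole numbers of reads per gene that had not been normalized. HISAT2 and OryCun2.0 are named in the submitters' processing notes, while the counting program, its strand setting and its annotation are not given in the sources used here. Without that setting, reads of a gene and its antisense partner cannot be told apart. The 17396 rows hold 2992 LOC numbers, and a RefSeq table of assembly mOryCun1.1 supplied symbols for 542 of them. No coordinates or sequences are given.

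Differential expression was tested with edgeR 4.0.16 under R 4.3.3 (TMM, filterByExpr with a minimum count of 10, glmQLFit and glmQLFTest with default settings, two-sided), with Benjamini-Hochberg adjustment over 14003 genes. Standard errors were derived from the quasi-likelihood F. Single values were compared by an exact two-sided permutation test of log2(CPM + 1), which cannot give a p below 0.1. Total counts of 16031151 to 16798012 set the precision. Every member is named, with PTPRC as the reference of the ratios and the 3 genes of smallest p in each pathway list, and genes outside this rule are marked. The members and lists were chosen with earlier results of these data known. Alternatives were DESeq2 1.42.0, limma-voom (limma 3.58.1), other normalizations and filters, leave-one-out fits and a replicate block. The scripts were first tested on simulated counts.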

Additional observations from a re-analysis of the deposited data

How the results depend on the processing

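Of the comparisons of single genes in the 10 alternatives that kept all 6 libraries, 187 kept direction and side of the unadjusted p of 0.05, 7 passed it newly, 2 lost it and 0 changed direction. For CD8A, DESeq2 gave no p. The 5 genes at the unadjusted p became 9 of 21 with a replicate block (9.03% of all genes tested), 7 with DESeq2 (11.5%), 6 with limma-voom (9%), 4 with upper-quartile normalization (7.20%) or DESeq2's size factors in edgeR (8.73%), 7 of 27 with no filter (7.61%), 2 by DESeq2's adjusted p (3.83%), 2 of 8 with at least 10 counts in every library (8.91%), and 2 with FNI replicate 3 and FNI+I-125 replicate 2 both left out (6.13%). With 1 library left out, they ran from 1 (6.14%) to 11 (8.08%). The 8 genes tested that were higher without overlap became 3 of 8 with at least 10 counts in every library. With 1 library left out they became 8 to 18, where 16.8% to 20.9% of all genes were. Leaving out a library removes a condition, so apart from small shifts in scaling this count cannot fall, and its lower end is no check. In all of these settings, 0 were lower. The median log2 fold change ran from 1.12 to 2.49 with 1 library left out and was 0.65 with both libraries left out. In that setting the direction of CD3D (-0.43), CD2 (-0.049) and CD8A (-0.95) was reversed. With 1 library left out, the direction was reversed for CD8A, which ran from -0.51 to 3.30, and for GATA3, which ran from -1.03 to 0.043. The replicate numbers shared by the groups do not pair rabbits, and deviations of same-numbered libraries from their group means correlated at r = 0.0519, -0.191 and -0.137 across genes, so that not every library correlated best with its own number. At these depths, the members below the filter were compared by their counts alone, with no test across genes.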
